A study of Mus musculus with 4 samples.

Results

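The cells described here are those of the distal convoluted tubule, the short nephron segment just downstream of the macula densa, in kidneys of aged mice treated with BPTES. They were chosen from single-cell transcriptomes by raw UMI counts (unique molecular identifiers, 1 per captured transcript). Barcodes under 500 UMIs or 300 genes were dropped, as were those with over 50% of their UMIs from the 13 genes of the mitochondrial genome. It was taken as a distal convoluted tubule cell with at least 3 UMIs of Slc12a3, more of Slc12a3 than of Slc12a1, at most 2 of Aqp2, at most 3 of Lrp2 and Slc34a1 together, and 0 of Ptprc, Pecam1 and Cdh5. This gave 616 of 50605 kept barcodes, namely 170 and 126 in BPTES replicates 1 and 2 and 107 and 213 in DMSO replicates 1 and 2.

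All animals were male C57BL/6 mice, 19 months old, that received either BPTES, a small-molecule inhibitor of glutaminase, or its vehicle DMSO for 1 month. Each group had 2 libraries. Kidney cells had been dissociated with liberase and sorted on CD45, and CD45-negative and CD45-positive cells were recombined at a set ratio before capture, so shares of all barcodes reflect the sort. Nothing in the labels says whether each library came from a single animal, and p-values measure the spread between these libraries only.

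The distal convoluted tubule reabsorbs sodium chloride through the thiazide-sensitive cotransporter NCC, the product of Slc12a3, whose activity is set by the WNK kinases, the kinase SPAK (Stk39) and the ubiquitin ligase adaptor KLHL3. It is also the site of regulated magnesium uptake through TRPM6. Its downstream end, with the connecting tubule, takes up calcium through TRPV5, the calcium buffers calbindin-D28k (Calb1) and calbindin-D9k (S100g) and the sodium-calcium exchanger (Slc8a1). Early cells are marked by parvalbumin (Pvalb), and the segment is known for a high density of mitochondria.

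The 616 cells held 7631307 UMIs, between 1232663 and 3043929 per library. Cells were shallower under BPTES, with medians of 7555.5 and 5918 UMIs against 10700 and 11622 under DMSO. Of 905 barcodes that met the Slc12a3 criteria, 191 held a UMI of Ptprc, 112 of Pecam1 or Cdh5, and 92 more than 3 of the proximal tubule genes, with overlaps. None of the members' barcode sequences occurred in more than 1 library, against 611 of 75662 distinct barcodes in the whole series. No doublet caller was run, and removing cells with over 3 times the median UMIs of their library served as an alternative.

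The label was checked against the defining markers, of which the rule used Slc12a3 alone. Slc12a3 was at 7156, 6105, 7863 and 7604 CPM (the gene's UMIs, summed over cells and scaled to the same total in every library) in BPTES 1, BPTES 2, DMSO 1 and DMSO 2, and at most 5.06 CPM in any other gated class, as the rule requires. Pvalb was at 332, 211, 119 and 63.7 CPM in the same order and no higher than 1.54 CPM in thick ascending limb, principal, proximal tubule or endothelial cells or leukocytes. Trpm6 was at 334, 256, 353 and 335 CPM, against 11.9 to 46.9 CPM in thick ascending limb cells and 11.6 to 56.2 CPM in principal cells. Pvalb and Trpm6, which the rule did not use, were thus highest in the gated cells. The 59 cells with exactly 3 Slc12a3 UMIs, just inside the threshold, held 457 CPM of Pvalb and 50.8 CPM of Trpm6, and the 107 barcodes with 2, just outside it, held 335 and 45.2 CPM. The 59 also held 27158 CPM of Klk1 and 7336 CPM of Calb1. All gated cells held 2768 to 11044 and 1018 to 2686 CPM per library. Of the 59, 20 and 22 came from BPTES 1 and 2, and 7 and 10 from DMSO 1 and 2.

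Markers of other cells were present at varied levels. The 21 proximal tubule markers summed to between 685 and 1096 CPM in the distal convoluted tubule cells, against 59861 to 65578 CPM in proximal tubule cells and 720 to 961 CPM in leukocytes. The 11 thick ascending limb markers summed to between 2547 and 4616 CPM, against 25740 to 31263 CPM in thick ascending limb cells and 271 to 313 CPM in proximal tubule cells. In the distal convoluted tubule cells the 12 intercalated cell markers summed to between 237 and 425 CPM, and the 20 leukocyte markers to between 83.5 and 117 CPM. Podocyte and endothelial markers did not exceed 29.9 and 19.7 CPM. Their part in the results below was not tested.

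**Figure D1:**
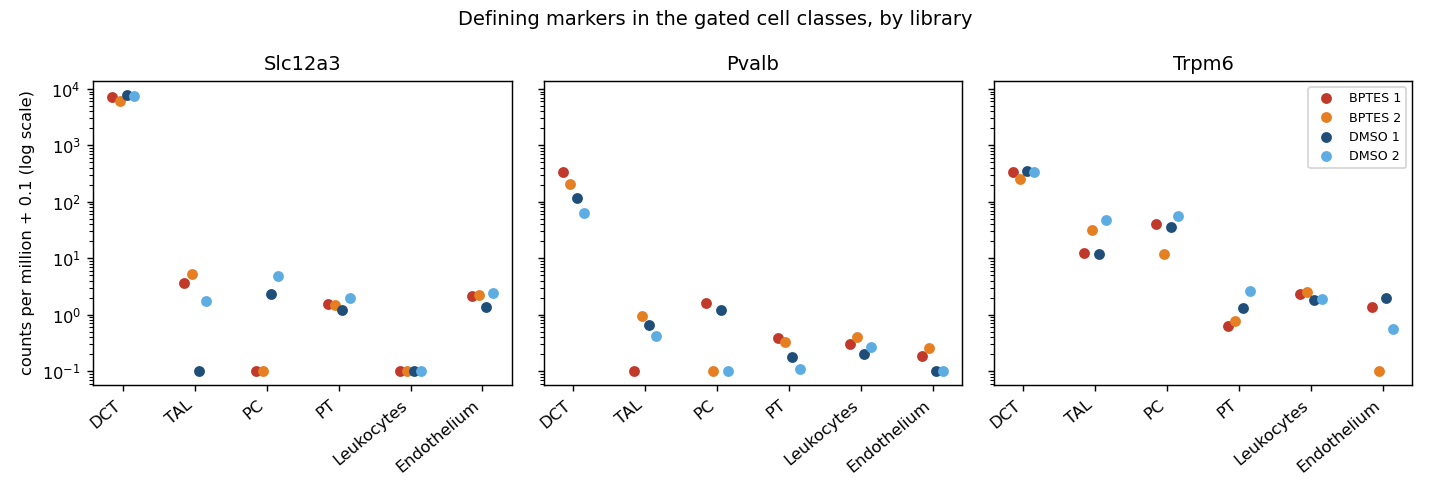
Slc12a3, Pvalb and Trpm6 in the gated cell classes. The vertical axis is CPM of the summed UMIs plus 0.1 on a log scale, and each point is 1 of the 4 libraries. Distal convoluted tubule cells (DCT) are highest for all 3 genes, and Trpm6 is also detected in thick ascending limb (TAL) and principal cells (PC).

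Against thick ascending limb cells, the upstream neighbour (643 cells gated on Slc12a1), distal convoluted tubule cells differed in some genes of NCC regulation and magnesium transport, in both directions for the latter. The gates fixed Slc12a3 and Slc12a1, and the other genes of both gates were left out. Summed counts were compared with edgeR's quasi-likelihood test with library as a block, and genes were called at an adjusted p under 0.05 and at least 2-fold. Of 9927 genes tested, 371 were called higher (3.74%) and 452 lower (4.55%). Of 18 tested genes of NCC regulation 6 were called higher and 0 lower, and of 14 of magnesium transport 3 were higher and 4 lower. Trpm7, the channel-kinase partner of TRPM6, was at 1160, 1096, 1156 and 1105 CPM against 124 to 147 CPM in thick ascending limb cells, a log2 difference of 3.17 (SE 0.11). Cnnm2, a magnesium transport regulator of the basolateral membrane, was 2.39 higher on the log2 scale (SE 0.15), Klhl3 3.39 (SE 0.16) and Wnk1 2.44 (SE 0.13). Wnk4, the kinase best known for NCC control, was 0.67 higher (SE 0.10), short of the 2-fold limit, and Stk39 was at 0.06 and was not called. Cldn16 and Cldn19, claudins of paracellular magnesium transport in the loop, were lower, with log2 differences of -7.36 and -4.55, as was Egf at -2.18.

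The 10 genes with the largest differences upward were Calb1, Pvalb, Malrd1, Lhx1, Fgf13, Emx1, Lhx1os, Rhcg, Gata3 and S100g. Lhx1 and Emx1 encode homeobox transcription factors. Lhx1 was at 149 to 277 CPM against 0.328 to 1.14 CPM, a log2 difference of 8.26 (SE 0.24). Downward they were Tmem207, Irx2, Pcsk6, Sim2, Irx1, Nccrp1, Eprn, Chst9, Slc9a3 and Cldn10. Cldn10 forms the sodium-selective paracellular pores of the loop, and it was at 0.811 to 4.07 CPM against 592 to 811 CPM. Tmem207 and the homeobox gene Irx2 had 0 UMIs in the distal convoluted tubule cells of all 4 libraries, which allows up to 0.393 CPM over the group, against 185 to 314 and 69.8 to 127 CPM in thick ascending limb cells. Umod, which encodes uromodulin, was detected in both segments, at 1666 to 3484 CPM against 12554 to 15948 CPM.

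The gated cells were not uniform. A group of 105 cells carried 2% or more of their UMIs from S100g, Klk1 and Calb1, and is called late here, with the other 511 cells called early. Klk1 encodes tissue kallikrein, a protease secreted in the connecting tubule and late convolution. Whether the late cells include connecting tubule cells was not tested. The 2% limit was set after the data had been seen, and 71 cells lay between 1% and 4%. Whether early and late cells are ranges of a gradient or types was not tested. The 3 genes that set the limit are given without a test. In late cells S100g was at 39446, 47038, 30234 and 37764 CPM in the order of the libraries above, and in early cells at 314, 275, 965 and 903 CPM.

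Genes that the limit did not use divided in the same direction in every library. Trpv5, the apical calcium channel, was at 166, 210, 203 and 151 CPM in late cells and at 0.666, 0, 3.17 and 16.4 CPM in early cells. Scnn1g and Scnn1b encode subunits of the epithelial sodium channel. Scnn1g was at 61.4 to 250 CPM in late and 3.12 to 12.6 CPM in early cells, and Scnn1b at 84.8 to 187 and 14.6 to 54.5 CPM. Kl, which encodes the FGF23 co-receptor klotho, was at 921 to 2878 CPM in late and 291 to 461 CPM in early cells, and Pth1r, the parathyroid hormone receptor, at 212 to 475 and 65.9 to 90.5 CPM. Slc12a3 itself was lower in late cells, at 2925, 1604, 4948 and 2870 CPM against 8225, 7374, 8353 and 7900 CPM, and Umod at 681 to 1165 against 1727 to 3903 CPM.

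Some genes did not split so cleanly. Pvalb was lower in the late cells of 3 libraries, at 15.8, 111 and 0 CPM, but at 156 CPM in those of DMSO 2 against 57.9 CPM in its early cells. Trpm6 behaved the same way, with 352 CPM in late and 334 CPM in early cells of DMSO 2 only. The 23 late cells of DMSO 2 also differed in their mitochondrial share, with a median of 1.70% against 23.3% to 28.0% in the late cells of the other libraries. These values stand on 179113 to 379428 summed UMIs of late cells per library.

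**Figure D2:**
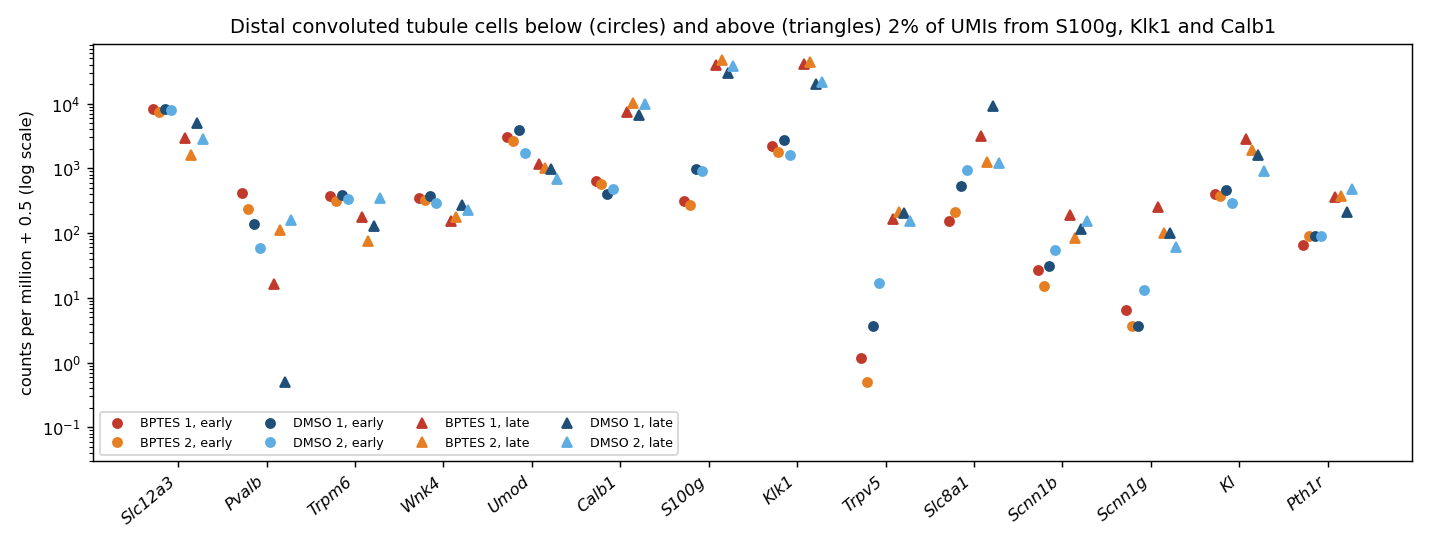
Gene levels in early cells (circles) and late cells (triangles) among the gated cells. The vertical axis is CPM plus 0.5 on a log scale, and each point is 1 library. Trpv5, Scnn1b, Scnn1g, Kl and Pth1r are higher in late cells of every library, and Slc12a3, Wnk4 and Umod are lower.

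BPTES libraries held more late cells. They made up 34 of 170 and 33 of 126 distal convoluted tubule cells under BPTES (20% and 26.2%) and 15 of 107 and 23 of 213 under DMSO (14.0% and 10.8%), so the groups did not overlap. The share rests on the 3 genes of the limit and is given with no test. A measure free of them was the share of cells with a UMI of Scnn1b, Scnn1g or Trpv5 after each cell was thinned to 2000 UMIs, which left out between 21 and 34 shallower cells per library. That share was 14.0% and 15.3% under BPTES and 6.98% and 14.8% under DMSO (exact permutation p = 0.667), against 0.0207% to 0.170% in proximal tubule cells. With no thinning it was 28.2% and 23.0% against 25.2% and 36.6%, at unequal depths.

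The abundance of the segment overlapped between groups. Distal convoluted tubule cells were 2.23% (95% exact binomial interval 1.91 to 2.59), 1.90% (1.58 to 2.26), 1.46% (1.20 to 1.77) and 2.85% (2.49 to 3.26) of the barcodes without a Ptprc UMI, and the intervals cover counting error only. The means were 2.06% ± 0.233 (SD, n = 2) under BPTES and 2.16% ± 0.984 (SD, n = 2) under DMSO, with an exact permutation p of 1. Mitochondrially encoded genes took 23.4% and 23.4% of the summed UMIs under BPTES and 18.7% and 19.1% under DMSO (exact two-sided permutation p = 0.333, the smallest that 2 against 2 libraries allow). With a limit of 25% in place of 50% these became 11.6% and 11.6% against 11.6% and 13.2%, so that the sign of the difference followed the limit.

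For the effect of BPTES on gene expression, the UMIs of the cells were summed per library and compared with edgeR's quasi-likelihood test over the 4 sums. Of 9719 genes tested, 290 had an adjusted p under 0.05 (2.98%), of which 130 were higher under BPTES (1.34%) and 160 lower (1.65%). DESeq2 called 119, of which 96 were shared, and 62.2% of its calls were higher against 44.8% here. The count was 60 without DMSO replicate 2, 92 without BPTES replicate 2, 143 without BPTES replicate 1 and 817 without DMSO replicate 1. It was 1646 without cells of over 3 times the median UMIs of their library, 58 with the 25% mitochondrial limit, 65 of 9438 genes in early cells (0.689%) and 46 in cells thinned to 2000 UMIs. Arl15, Sgcd, Nlgn1, Trpm3, Sdk1, Klk1, Gpx6, Igkc and Jchain were among the genes called in all 4 fits that leave out a library. The alternatives other than early cells, late cells and thinned cells numbered 14, those 4 fits included. Only AC149090.1, Gm16685, Igkc and Sdk1 were called in all 14. Levels below are in the order BPTES 1, BPTES 2, DMSO 1, DMSO 2. Those of all distal convoluted tubule cells are CPM after TMM scaling, whereas those within early or late cells and in other cell classes are CPM before scaling.

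One gene of NCC control passed the test. Slc12a3, which the rule used, was at 7421, 6486, 7318 and 7704 CPM. Wnk4 was at 324, 308, 330 and 290 CPM and Stk39 at 274, 267, 273 and 280 CPM, with overlapping groups and log2 fold changes of 0.03 (SE 0.17) and -0.03 (SE 0.16). Of 19 tested genes of NCC regulation 1 rose and 0 fell, against 1.34% and 1.65% of all genes, with a median log2 fold change of 0.13 against 0.00 over all genes. Without DMSO 1 the median was 0.39. Without cells of over 3 times the median UMIs 2 were higher and 2 lower of 18, where 891 and 755 of 8577 genes were. The riser was Ppp1r1a, which encodes an inhibitor of protein phosphatase 1, at 1123, 1319, 850 and 698 CPM (log2 fold change 0.66, SE 0.18, adjusted p = 0.0325), and it missed the threshold without BPTES 1, BPTES 2 or DMSO 2.

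Of 13 tested magnesium transport genes 1 rose and 0 fell, against 1.34% and 1.65% of all genes, with a median of 0.11. Without DMSO 1 the median was 0.08. Without cells of over 3 times the median UMIs it was -0.08, and 3 of 11 were higher, where 891 of 8577 genes were. Trpm6 was at 346, 272, 329 and 340 CPM (log2 fold change -0.11, SE 0.17), with overlapping groups. Pcbd1, which encodes pterin-4a-carbinolamine dehydratase, was called, at 229, 243, 162 and 127 CPM (0.72, SE 0.17, adjusted p = 0.0174), and missed the threshold without BPTES 1, BPTES 2 or DMSO 2.

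Arl15 fell, and with the immunoglobulin gene Igkc it had the lowest adjusted p-value of the genes tested. It encodes a small GTP-binding protein known to act on CNNM magnesium transporters, and lies on chromosome 13 from 113794506 to 114157462 (GRCm38.p6). It was at 85.4, 80.2, 376 and 437 CPM, a log2 fold change of -2.29 (SE 0.18, adjusted p = 5.34e-11). Both BPTES libraries lay far below both DMSO libraries. In thick ascending limb cells Arl15 was at 384, 365, 459 and 594 CPM and in proximal tubule cells at 94.7, 93.1, 96.9 and 111 CPM, and the fall in distal convoluted tubule cells exceeded that in either (differences of log2 fold changes -1.95 and -2.23, adjusted p of the interaction 5.88e-07 and 4.67e-21). Among early cells Arl15 was at 49.3 and 29.1 CPM under BPTES and 303 and 427 CPM under DMSO before scaling. A single cell gave 63.4% of the 93 Arl15 UMIs of BPTES 2 and another gave 43.9% of the 155 of BPTES 1, whereas the highest share of a cell was 22.9% of 595 in DMSO 1 and 5.79% of 1312 in DMSO 2. In cells with no UMI of Slc12a1, Aqp2, Lrp2 or Slc34a1 the fold change was -3.08 and missed the threshold.

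**Figure D3:**
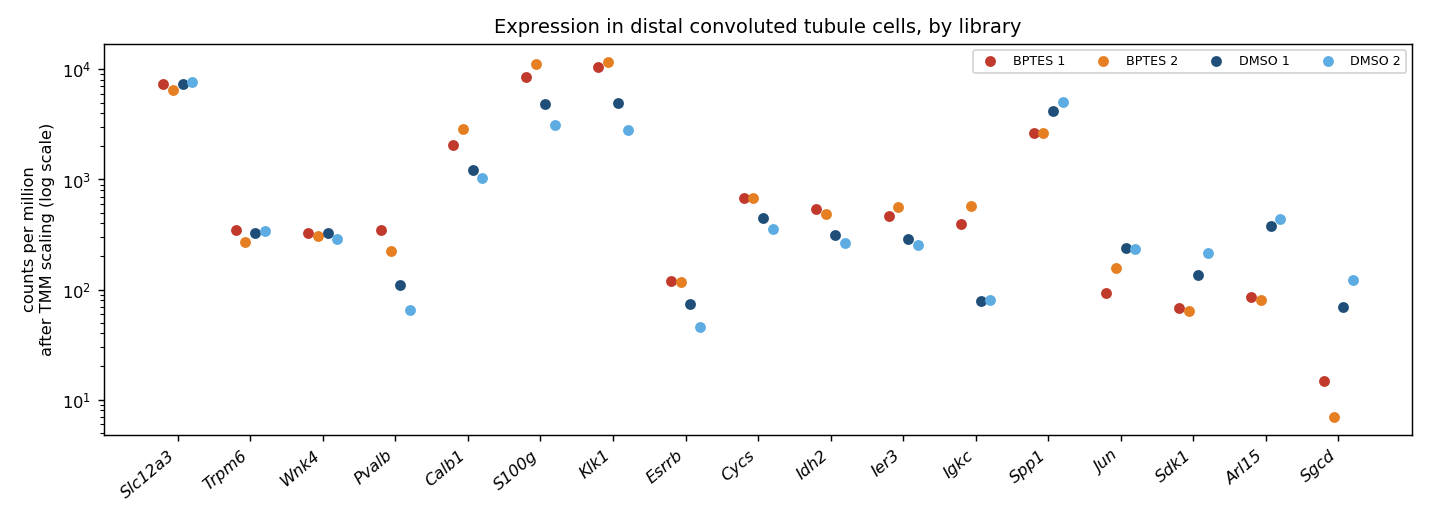
Levels of 17 genes in distal convoluted tubule cells. The vertical axis is CPM after TMM scaling on a log scale, and each point is 1 library. Slc12a3, Trpm6 and Wnk4 overlap between groups, whereas Arl15 lies at 80.2 and 85.4 under BPTES and 376 and 437 under DMSO.

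Among genes of calcium transport in the late convoluted and connecting tubule, 3 rose and 1 fell of 13 tested. The shares over all genes were 1.34% and 1.65%, and the median of the list was 0.43. Without cells of over 3 times the median UMIs 7 of 12 were higher and 1 lower (median 0.92). In that setting 891 of 8577 genes were higher and 755 lower. With the 25% mitochondrial limit 1 of 12 was higher (median 0.13). Leaving out BPTES 2 or DMSO 2 gave medians of 0.26 and 0.19. Klk1 (chromosome 7, 44225360 to 44229622) was at 10523, 11733, 4927 and 2804 CPM (log2 fold change 1.53, SE 0.22, adjusted p = 0.0014). S100g (chromosome X, 162961992 to 162964599) was at 8508, 11219, 4814 and 3113 CPM (1.32, SE 0.21, adjusted p = 0.000871), and Calb1 (chromosome 4, 15881264 to 15906709) at 2070, 2854, 1216 and 1032 CPM (1.13, SE 0.18, adjusted p = 0.000447). The groups did not overlap for any of the 3, and S100g and Calb1 missed the threshold without BPTES 2 or DMSO 2. With the 25% mitochondrial limit Klk1 (1.10) and Calb1 (0.70) were not called. After thinning to 2000 UMIs S100g (0.68) and Calb1 (0.72) were not called. Trpv6, a second epithelial calcium channel, fell on few UMIs (7, 3, 13 and 66), and the call was lost without BPTES 2 or DMSO 2.

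These 3 genes set the limit between early and late cells, so a rise in them enlarges the late share by construction. Their values within early and within late cells are given with no test. Within early cells Klk1 was at 2204, 1817, 2782 and 1599 CPM, with overlapping groups, S100g was lower under BPTES, as given above, and Calb1 was at 634, 572, 405 and 472 CPM. Within late cells Klk1 was at 41594, 43766, 20257 and 21461 CPM, whereas Calb1 overlapped between groups at 7390, 10184, 6672 and 9759 CPM. Slc8a1, in contrast, was at 798, 471, 1668 and 970 CPM and was not called (log2 fold change -1.05, SE 0.38), although it was called lower without BPTES 1 (-1.48), without the low-count filter, with the replicate block and without cells of over 3 times the median UMIs (-0.89). A single cell gave 51.2% of its UMIs in BPTES 1. Scnn1g was called (1.45, SE 0.31, adjusted p = 0.0148) while Scnn1b was not (-0.10, SE 0.29), and 1 cell gave 56.7% of the 104 Scnn1g UMIs of BPTES 1. The Scnn1g call was lost without BPTES 1 (0.72), DMSO 1 (1.48) or DMSO 2 (1.44).

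Start regions were searched for genes that rose, namely Klk1, S100g, Pvalb, Cycs and Esrrb, which encodes an orphan nuclear receptor. Those that held the motif below are shown. Calb1 had no entry in the table. The sequences are from RefSeq (GRCm38.p6), 250 bases before to 50 after the annotated start on the gene's own strand, and capitals mark AAGGTCA or its reverse complement TGACCTT, the half-site read by estrogen-related receptors. The motif was chosen after the results were seen, and regulation of these genes by any receptor was not tested.
Klk1, chr7:44225110-44225409, plus strand: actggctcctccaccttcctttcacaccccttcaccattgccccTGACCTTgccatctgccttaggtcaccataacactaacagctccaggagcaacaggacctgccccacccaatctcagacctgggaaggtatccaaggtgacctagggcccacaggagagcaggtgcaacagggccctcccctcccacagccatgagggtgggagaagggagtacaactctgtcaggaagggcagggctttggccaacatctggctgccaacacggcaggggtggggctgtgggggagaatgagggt
S100g, chrX:162964550-162964849, minus strand: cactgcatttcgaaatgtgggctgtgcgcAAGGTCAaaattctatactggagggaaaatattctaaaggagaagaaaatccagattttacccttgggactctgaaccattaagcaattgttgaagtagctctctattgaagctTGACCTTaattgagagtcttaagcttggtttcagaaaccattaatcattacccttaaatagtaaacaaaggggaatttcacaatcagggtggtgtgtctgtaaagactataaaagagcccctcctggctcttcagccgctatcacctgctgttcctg

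On either strand, the motif occurred 1 time in the Klk1 region and 2 times in that of S100g. It occurred in 5.38% of 27025 genes with such a region, in 11 of 108 matched genes called higher (10.2%), in 8 of 122 called lower (6.56%) and in 8 of 62 nuclear respiratory chain genes (12.9%). The start regions of Pvalb, Cycs and Esrrb did not hold these letters. Esrrb was at 120, 117, 74.5 and 45.6 CPM (log2 fold change 1.02, SE 0.21, adjusted p = 0.00694). It missed the threshold with the 25% mitochondrial limit (1.12) and after thinning to 2000 UMIs (1.24). Without DMSO 2 Esrrb also missed the threshold (0.66), and in late cells alone its fold change was -0.26.

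Pvalb, the calcium buffer of the early segment, rose as well. It was at 344, 224, 111 and 64.6 CPM (log2 fold change 1.74, SE 0.30, adjusted p = 0.0327), and was detected in 41.8% and 36.5% of cells under BPTES and 21.5% and 11.3% under DMSO, although the BPTES cells were shallower. Within early cells it was at 412, 239, 139 and 57.9 CPM, and the groups did not overlap, but the fit to early cells did not call it (1.86, adjusted p = 0.267). The call was also lost without DMSO 2, with a Slc12a3 minimum of 5 and with at least 2000 UMIs per cell. Emx1, a homeobox gene of the segment, rose by 0.70 (SE 0.17, adjusted p = 0.0179) to 318 and 332 CPM from 226 and 177 CPM, and missed the threshold without BPTES 1, BPTES 2 or DMSO 2.

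Some respiratory chain genes of the nuclear genome rose. Of 74 tested, 19 rose and 0 fell, against 1.34% and 1.65% of all genes. An unadjusted p under 0.05 was found for 68, against 1731 of all 9719 genes, and the log2 fold change was positive for all 74 with a median of 0.54. Cycs, Cox4i1, Cox6a1, Sdhb, Atp5e, Atp5o, Ndufb8, Ndufs7 and Ndufs8 were among those that rose, which span complexes I, II, IV and V and cytochrome c. The list summed to 46142 and 44361 CPM under BPTES and 39180 and 28766 CPM under DMSO before scaling. Cycs, cytochrome c, was at 676, 677, 447 and 352 CPM (log2 fold change 0.76, SE 0.17, adjusted p = 0.0115). It missed the threshold without BPTES 1 (0.77) or BPTES 2 (0.76), with the 25% mitochondrial limit (0.86) and after thinning to 2000 UMIs (0.77).

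Of 22 tested Krebs cycle genes 5 rose and 0 fell, against 1.34% and 1.65% of all genes, with a median of 0.48. The count was 0 after thinning and 1 with the 25% mitochondrial limit. It was 17 without cells of over 3 times the median UMIs, where 891 of 8577 genes were higher. Leaving out BPTES 1, BPTES 2, DMSO 1 or DMSO 2 gave medians of 0.42, 0.53, 0.63 and 0.33. Fewer of the list rose without BPTES 1, BPTES 2 or DMSO 2, and more without DMSO 1. Idh2, the mitochondrial isocitrate dehydrogenase that uses NADP, was at 535, 481, 313 and 263 CPM (0.82, SE 0.17, adjusted p = 0.0055). Idh2 missed the threshold without BPTES 1 (0.75) or BPTES 2 (0.90) and after thinning to 2000 UMIs (0.53). The others that rose were Idh3g, Mdh1, Pdhb and Sdhb, the last of which is also on the respiratory list. The 13 mitochondrially encoded genes, which the 50% limit touches, had a median of 0.41 and are given with no test.

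All tested genes of the respiratory list stayed positive in 16 of 17 alternatives, the exception being the late cells alone, where 52 of 74 were positive and the median was 0.06. The number that passed the test moved more widely, from 0 to 72. It was 0 with the 25% mitochondrial limit and after thinning to 2000 UMIs. It was 72 without cells of over 3 times the median UMIs, where 891 of 8577 genes were higher. Leaving out BPTES 1, BPTES 2, DMSO 1 or DMSO 2 gave medians of 0.52, 0.57, 0.70 and 0.37. Fewer of the list passed without BPTES 1, BPTES 2 or DMSO 2, and more without DMSO 1. Depth per cell, given above, moved with the groups, as did the nuclear RNA Malat1, at 35612, 34334, 43623 and 59073 CPM in the sums (log2 fold change -0.55, SE 0.19, adjusted p = 0.0934). Per cell the groups lay further apart, since the median early cell held 26.0 and 17.7 Malat1 UMIs per 10000 under BPTES and 280.1 and 536 under DMSO. In late cells the medians were 7.76, 5.92, 10.1 and 12.4. The part of depth and of nuclear RNA in the respiratory values was not tested.

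In thick ascending limb cells the same 74 genes were all positive, with a median of 0.27 and 0 called, where 0.346% of 10122 genes were called. None of the 74 differed in effect between the segments by the interaction test at an adjusted p under 0.05, with a background of 0.32% of 10633 genes. In proximal tubule cells the median was -0.10, and the effect differed from that in distal convoluted tubule cells for 44 of 75 genes, all 44 higher in the distal cells, against 3.84% of 16212 genes overall. For Cycs the difference of log2 fold changes was 0.89 (SE 0.21, adjusted p = 0.00205).

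**Figure D4:**
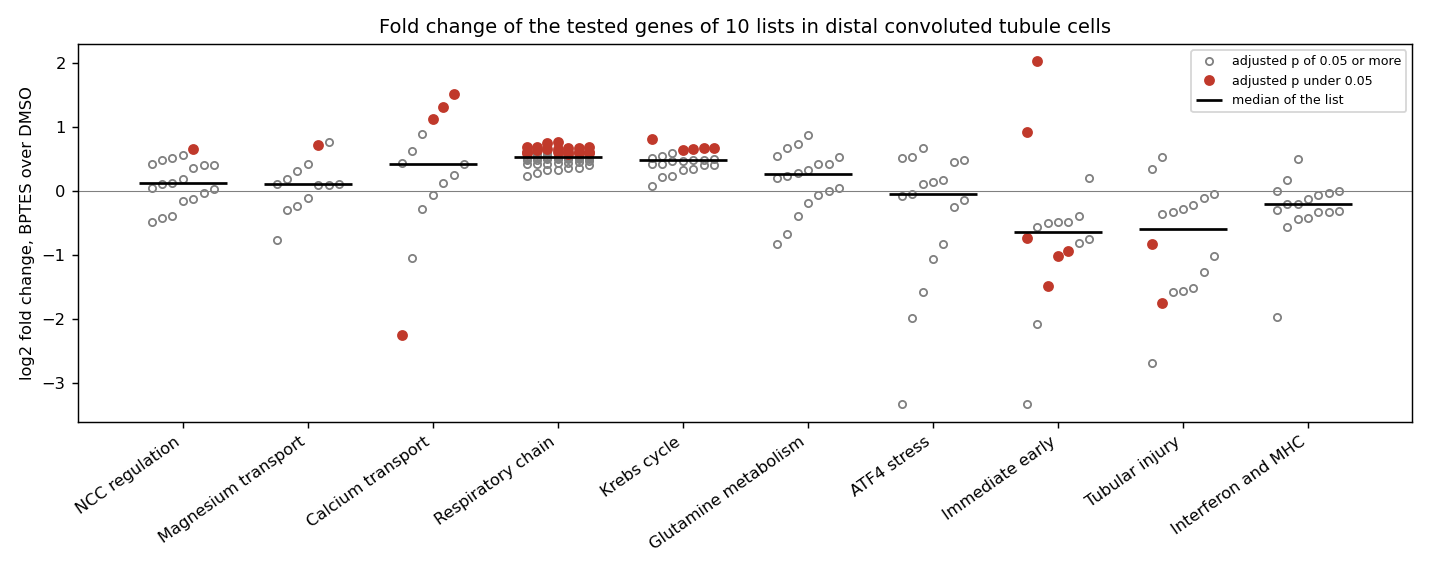
Fold changes of the tested genes of 10 lists in distal convoluted tubule cells. The vertical axis is the log2 fold change of BPTES over DMSO, each point is a gene, filled points passed an adjusted p under 0.05, and bars are medians. Respiratory chain genes lie above 0 as a group with a median of 0.54, and no gene of the glutamine, ATF4 or interferon lists is filled.

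Genes of glutamine and glutamate metabolism, the pathway BPTES acts on, gave no call, where 2.98% of all genes were called, a share at which 18 genes may give none. Of 18 tested, 0 rose and 0 fell by edgeR, and likewise by DESeq2, while 4 had an unadjusted p under 0.05 by edgeR, 3 higher and 1 lower. Other settings called some: 3 of 15 higher without cells of over 3 times the median UMIs, where 891 of 8577 genes were, 2 higher and 1 lower of 21 without DMSO 1, where 451 and 366 of 10457 genes were, and 1 higher with the replicate block. Glul, glutamine synthetase, was at 23.7, 38.8, 16.4 and 16.6 CPM (log2 fold change 0.87, SE 0.30, adjusted p = 0.0931). Glud1, glutamate dehydrogenase, overlapped between groups at 202, 187, 205 and 174 CPM. Targets of ATF4, the transcription factor of amino acid shortage, gave 0 calls of 17 tested by edgeR and by DESeq2. By edgeR 8 had an unadjusted p under 0.05, 4 in each direction. Without cells of over 3 times the median UMIs 3 of 12 rose, where 891 of 8577 genes did. With the replicate block, without BPTES 1, without DMSO 1 or without the low-count filter 1 was called lower.

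Among tubular injury genes 2 fell and 0 rose of 16 tested, against 1.65% and 1.34% of all genes, with a median of -0.59. The median was -0.40 without DMSO 2, over 16 tested genes. It was -1.53 without DMSO 1, -1.45 without BPTES 2 and -0.81 without BPTES 1, but 21, 22 and 21 genes were tested there. Without cells of over 3 times the median UMIs 1 of 14 was higher and 2 lower, with a median of -0.12. In that setting 891 of 8577 genes were higher and 755 lower. Spp1, which encodes osteopontin, was at 2634, 2652, 4210 and 5102 CPM (log2 fold change -0.82, SE 0.17, adjusted p = 0.0082), and missed the threshold without BPTES 1 or BPTES 2. Without cells of over 3 times the median UMIs the fold change was -0.19 and was not called. Within early cells it was at 1563 and 1119 CPM under BPTES and 4220 and 4720 CPM under DMSO before scaling, and within late cells at 6410, 7380, 6332 and 10089 CPM. Sox9, a transcription factor of tubular repair, was at 5.51, 7.76, 18.3 and 24.3 CPM (-1.74, SE 0.39, adjusted p = 0.0106), and missed the threshold without BPTES 1 or DMSO 2. Lcn2, which encodes NGAL, was at 73.9, 0, 74.5 and 446 CPM and was not called, with 1 cell holding 76.9% of its UMIs in BPTES 1. Vcam1 had 1, 0, 1 and 30 UMIs and Havcr1 0, 0, 1 and 11 UMIs, too few to enter the test.

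Immediate early genes moved in both directions, with 2 that rose and 4 that fell of 16 tested, against 1.34% and 1.65% of all genes, and a median of -0.64. DESeq2 called 1 higher and 1 lower, and gave no adjusted p for Nr4a1, Klf6, Junb or Socs3. Jun was at 93.1, 157, 237 and 233 CPM (log2 fold change -0.93, SE 0.20, adjusted p = 0.0123), and Klf6 at 31.4, 43.1, 67.6 and 78.2 CPM (-1.01, SE 0.22, adjusted p = 0.00835). Both missed the threshold without BPTES 1 or DMSO 2, and Jun without DMSO 1 as well. Without cells of over 3 times the median UMIs Klf6 was at -0.45. Junb and Socs3, a feedback inhibitor of cytokine signalling, also fell, and both calls were lost without BPTES 1, BPTES 2 or DMSO 2. Ier3, an early-response gene that limits cell death, rose, at 470, 561, 286 and 255 CPM (0.93, SE 0.17, adjusted p = 0.00134), and missed the threshold without BPTES 2. The rise of Nr4a1 rested on few UMIs (17, 30, 9 and 9), of which 1 cell held 86.7% in BPTES 2, and 1 cell held 58.2% of Jun in the same library. Nr4a1 missed the threshold without BPTES 2 (fold change 1.18) and without DMSO 2 (1.52).

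The senescence, heat shock and clock lists had 1 call each, where 2.98% of all genes were called. Igfbp7 rose among 16 senescence and p53 genes, at 1920, 2000, 1333 and 1199 CPM (0.63, SE 0.17, adjusted p = 0.0376), while Cdkn1a, which encodes p21, was at 12.7, 16.4, 11.4 and 8.99 CPM and was not called (0.52, SE 0.39). Hspe1, the mitochondrial chaperonin HSP10, was the only riser of 15 heat shock genes, at 234, 229, 158 and 143 CPM (0.62, SE 0.17, adjusted p = 0.0339). Without cells of over 3 times the median UMIs 6 of the 15 rose, where 891 of 8577 genes did. Rora, a nuclear receptor of the circadian clock, fell among 17 clock genes, at 190, 206, 334 and 315 CPM (-0.72, SE 0.17, adjusted p = 0.0143). All 3 missed the threshold without BPTES 1 or BPTES 2, Hspe1 also with DESeq2 (adjusted p = 0.052) and Igfbp7 with RLE scaling in edgeR (adjusted p = 0.0524). Of 17 interferon and MHC genes 0 were called by edgeR or DESeq2, and 3 had an unadjusted p under 0.05.

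Among the other named genes that fell, several are long. Sgcd, which encodes delta-sarcoglycan and spans 1018375 bases on chromosome 11 (46971077 to 47989451), was at 14.9, 6.89, 70.1 and 121 CPM (log2 fold change -3.07, SE 0.35, adjusted p = 0.000995), and missed the threshold without cells of over 3 times the median UMIs (-3.25). Sdk1, a cell adhesion molecule, was at 67.8, 63.8, 136 and 213 CPM (-1.42, SE 0.21, adjusted p = 0.000179). Among called genes with an average log2 CPM of 5 or more and groups that did not overlap, the remaining members of the 15 with the largest falls were Arl15, Nlgn1, Mcc, Tinag, Trpm3, AI838599, Gm16685, Taf1d, AC149090.1, 1110051M20Rik, Zfp608, Arhgef10l and Mgat5. All 52 Nlgn1 UMIs of BPTES 1 came from 1 cell. The median span of the genes that fell was 121653 bases, against 10576.5 for those that rose and 26253 for all tested genes, and this difference was not tested. The part of nuclear RNA, which differed per cell as the Malat1 medians show, was not tested either.

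Within the same limits the 15 largest rises were Igha, Igkc, Pvalb, Klk1, Gpx6, Inmt, S100g, Pim3, Calb1, Ces1d, Esrrb, Endog, Tmed4, Ddit4l and Tvp23b. Gpx6, a glutathione peroxidase, was at 66.1, 60.3, 26.5 and 22.6 CPM (1.39, SE 0.23, adjusted p = 0.000533). Pim3, a serine/threonine kinase, was at 85.4, 78.4, 40.4 and 29.3 CPM (1.27, SE 0.21, adjusted p = 0.00055). Inmt, an N-methyltransferase, was at 67.8, 68.1, 32.9 and 22.3 CPM (1.34, SE 0.23, adjusted p = 0.000696). Without DMSO 2 Pim3 (1.01) and Inmt (1.03) missed the threshold, as did Inmt with the 25% mitochondrial limit (1.40). After thinning to 2000 UMIs Gpx6 (1.04), Pim3 (0.73) and Inmt (0.87) were not called.

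Transcripts of antibody-secreting cells were counted in the distal convoluted tubule cells and rose with BPTES. Of 7 tested plasma cell markers 4 rose, namely Igkc, Igha, Jchain and Iglc1, against 1.34% of all genes, with a median of 2.59. Igkc and Jchain kept their calls without each library, whereas Igha lost its call without DMSO 1 or DMSO 2 and Iglc1 without BPTES 1, DMSO 1 or DMSO 2, and DESeq2 called Igkc and Igha and gave no adjusted p for the others that rose. Igkc, the kappa light chain constant gene, was at 393, 574, 78.3 and 81.2 CPM (log2 fold change 2.59, SE 0.19, adjusted p = 5.34e-11), and 97.1% and 97.6% of the cells under BPTES held a UMI of it. Under DMSO 65.2% and 61.1% of early cells and 66.7% and 52.2% of late cells held a UMI of Igkc. The fold change was 2.65 in thick ascending limb and 2.71 in proximal tubule cells, with interaction differences of -0.12 (SE 0.21) and -0.04 (SE 0.21). Leukocytes held 15393, 21640, 1450 and 1449 CPM of Igkc. The 20 leukocyte markers summed to 90.4, 94.9, 83.5 and 117 CPM in the distal convoluted tubule cells. The part of RNA from other cells was not tested.

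**Figure D5:**
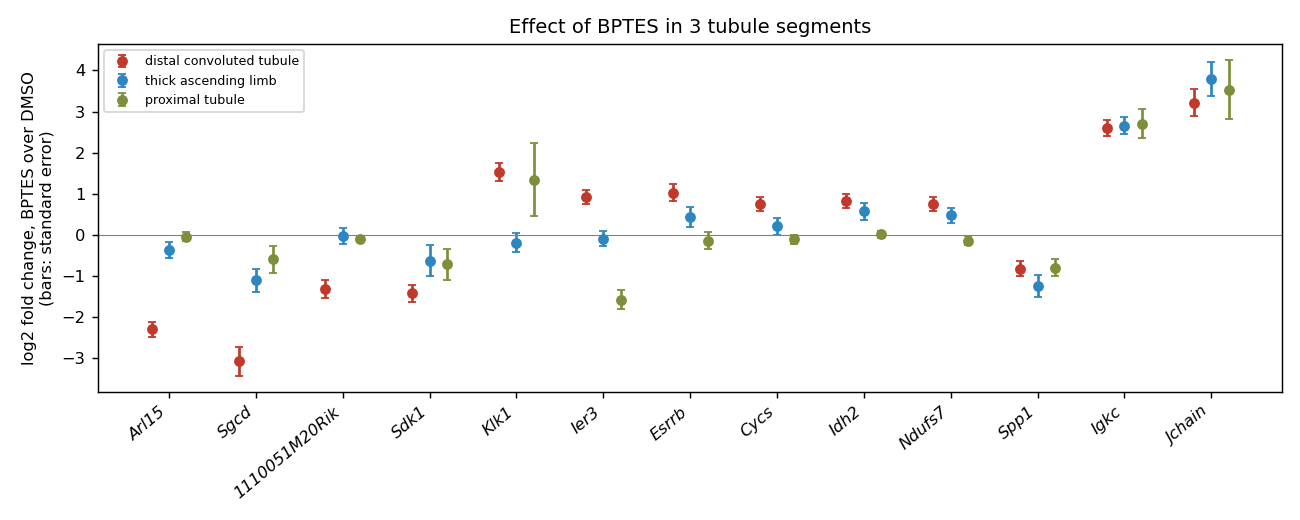
Effect of BPTES on 13 genes in distal convoluted tubule, thick ascending limb and proximal tubule cells. The vertical axis is the log2 fold change of BPTES over DMSO, and bars are standard errors. Arl15, Sgcd and 1110051M20Rik lie lower in distal convoluted tubule cells than in the other segments, and Igkc lies at 2.59, 2.65 and 2.71.

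Of 18 tested genes listed as markers of the segment 4 rose (Pvalb, Calb1, Ppp1r1a and Emx1) and 1 fell (Emx2os), against 1.34% and 1.65% of all genes, with a median of 0.37. The list is not exclusive to the segment. With Slc12a3 it summed to 16731 to 21653 CPM here and to 8555 to 11921 CPM in thick ascending limb cells. Against those cells Ppp1r1a was lower (log2 difference -0.56, short of the 2-fold limit), and Emx2os was not called (-0.22). The number that rose depended on the library left out. Without DMSO 2 the fold changes of Pvalb, Calb1, Ppp1r1a and Emx1 were 1.36, 1.00, 0.51 and 0.51. The Emx2os call was lost with RLE scaling and without BPTES 1 or DMSO 2. Of 15 genes of the epithelial sodium channel and aldosterone response 1 rose (Scnn1g) and 0 fell, against 1.34% and 1.65% of all genes, with a median of 0.41. The median was 0.56 without DMSO 1 and 0.22 without DMSO 2. Without cells of over 3 times the median UMIs 3 of 14 were higher and 1 lower. In that setting 891 of 8577 genes were higher and 755 lower. Of the markers of other cells, 1 of 7 tested for the thick ascending limb (Slc5a3) and 1 of 3 for principal cells (Scnn1g) rose, against 1.34% of all genes. The Slc5a3 call was lost in 14 of 17 alternatives, DESeq2 and RLE scaling among them. None of 15 proximal tubule, 5 intercalated cell, 8 leukocyte or 1 podocyte markers was called by edgeR, and 4, 1, 1 and 0 of them had an unadjusted p under 0.05. DESeq2 called 0 of these as well. Without cells of over 3 times the median UMIs, however, 7 of 13 tested proximal tubule markers were called higher, with a median of 0.89, where 891 of 8577 genes were called higher. Of the intercalated cell markers 2 were called lower without BPTES 1, and 2 higher without BPTES 2 or without DMSO 1. The proximal tubule markers had a positive fold change in 15 of 15, with a median of 0.54, and their part in the results was not tested. Of 5 cell cycle genes 0 were called by edgeR or DESeq2 and 1 had an unadjusted p under 0.05, and no endothelial or stromal marker had enough counts to be tested.

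In all, 34 of 10633 genes (0.32%) differed in the effect of BPTES between distal convoluted tubule and thick ascending limb cells, and 11 of these were among the 290 called in the distal cells. Klk1 was one, since it was at 2922, 3145, 3987 and 3518 CPM in thick ascending limb cells before scaling with a fold change of -0.19 (SE 0.23) there (difference of log2 fold changes 1.74, SE 0.23, adjusted p = 0.000158). Ier3 was another (1.01, SE 0.19, adjusted p = 0.0137), and 1110051M20Rik fell in the distal cells with a fold change near 0 in the limb (-1.29, SE 0.28, adjusted p = 0.032). Without BPTES 1 none of these 3 was called, and Ier3 and 1110051M20Rik were not called with DESeq2. The count of 34 was 1 without BPTES 1 and 140 without DMSO 1.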

How the data were processed

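Single cells of 4 libraries were captured with 10x Genomics 3' chemistry, and the authors deposited raw UMI counts per gene and barcode, made with Cell Ranger 8.0.1 on mm10, per the submitters' processing notes. Members and gene lists were chosen with earlier results of these data known. The gate is given above. It left 616 cells, whose counts were summed per library, because cells are not replicates.

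Sums were tested with edgeR 4.0.16 (R 4.3.3): TMM scaling, filterByExpr, robust quasi-likelihood fits and Benjamini-Hochberg adjustment over all tested genes, with a threshold of 0.05. Interactions between segments had library as a block. Shares were compared over libraries by exact two-sided permutation. The genes of the gate stayed in the fit and are described without a test. The fit was tested on simulated data. Named genes were up to 15 in each direction, by size of change, among called genes whose groups do not overlap and whose average log2 CPM is 5 or more, 36 fixed genes and called members of the 26 lists, and against thick ascending limb cells the 10 largest differences in each direction. Alternatives were DESeq2 1.42.0, RLE scaling, no low-count filter, a replicate block, leaving out each library, and other gates. Analyses of early cells, late cells and cells thinned to 2000 UMIs were added after seeing the data. Symbols and coordinates are those of the deposited tables and of RefSeq GRCm38.p6. No batch is named in the labels. Results of a few listed genes are not reported here. The symbols of 2 list genes were not found in the tables. An intron read can count in this assay, and whether the authors counted introns is not given in the sources used here.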

Additional observations from a re-analysis of the deposited data

Results flagged for a closer look

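The effect of BPTES differed between distal convoluted tubule cells and another segment, by an interaction test at an adjusted p under 0.05, for the named genes below. Values are differences of log2 fold changes, distal convoluted tubule minus the other segment.

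Against thick ascending limb cells the difference was -1.95 for Arl15, -1.97 for Sgcd, -1.29 for 1110051M20Rik, 1.74 for Klk1 and 1.01 for Ier3. Against proximal tubule cells it was -2.23 for Arl15, -2.49 for Sgcd, -2.11 for Tinag, -2.01 for Nlgn1, -1.79 for Mgat5, -1.58 for Taf1d, -1.58 for Emx2os, -1.57 for AI838599, -1.34 for Arhgef10l, -1.33 for Zfp608, -1.22 for 1110051M20Rik, -1.15 for Trpm3, -0.96 for AC149090.1 and -0.76 for Gm16685. The difference of Arl15 from thick ascending limb cells held without each library and with DESeq2. That of Klk1 was lost without BPTES 1 (1.76), that of 1110051M20Rik without BPTES 1, BPTES 2 or DMSO 1, and those of Sgcd and Ier3 without BPTES 1, BPTES 2 or DMSO 2, and DESeq2 did not call the last 3 genes.

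Upward differences against proximal tubule cells were 2.54 for Nr4a1, 2.49 for Ier3, 2.47 for Ddit4l, 1.48 for Inmt, 1.27 for Pim3, 1.22 for S100g, 1.19 for Esrrb, 1.15 for Endog, 1.15 for Ces1d, 0.94 for Emx1, 0.75 for Hspe1 and 0.73 for Pcbd1. For 20 respiratory chain and Krebs cycle genes called in the distal cells they ran from 0.70 (Atp5o) to 0.91 (Ndufs7). Genes not called in the distal cells differed too, by 1.80 for Cdkn1a, 1.37 for Trpm6, 1.12 for Egf and 0.70 for Stk39.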

How the results depend on the processing

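Of 290 genes called in distal convoluted tubule cells, the count became 119 with DESeq2, 482 with no low-count filter, 141 with a Slc12a3 minimum of 5, 534 in cells with no UMI of Slc12a1, Aqp2, Lrp2 or Slc34a1, 58 with the 25% mitochondrial limit, 1646 without cells of over 3 times the median UMIs, and from 60 to 817 leaving out a library. Chosen after seeing the data, early cells gave 65, late cells 4 and thinned cells 46. With the replicate number as a block it was 453, including all 290. The deviations of BPTES 1 and DMSO 1 from their group means had r = -0.01 over genes. With 2 libraries per group this cannot tell whether same-numbered libraries shared processing, and the labels do not say. The 34 differences from thick ascending limb cells became 5 with DESeq2, 139 without the filter and 1 to 140 leaving out a library. The 623 from proximal tubule cells became 256 with DESeq2 and 85 to 574 leaving out a library. The 823 differences in level became 1236 without the filter. For shares, BPTES minus DMSO in percentage points, the mitochondrial difference of 4.48 became -0.84 with the 25% limit, 5.04 and 3.97 with Slc12a3 minimums of 5 and 2, 7.32 in cells free of other segments' genes, 4.82 with at least 2000 UMIs and 5.01 without high-UMI cells. The Scnn1b, Scnn1g or Trpv5 share (3.74) became -4.29 with the 25% limit, -5.30 without thinning and -0.85 at 1000 UMIs. The late share (10.7) became 6.72 in cells free of other segments' genes.

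For 98 named genes there were 1568 values under alternatives. A call was lost in 427 of them, 46 of these with the 25% mitochondrial limit, and gained in 29. The sign changed in 40 values, in 22 genes. In late cells these were Hspe1 -0.023, Ndufs8 -0.043, Ndufb8 -0.020, Kcnj10 -0.22, Egf -0.87, Spp1 0.0058, Scnn1b 0.32, Nr3c2 0.25, Hsd11b2 0.36, Glud1 -0.29, Fxyd2 -0.66, Wnk4 -0.35, Klhl3 -0.21, Esrrb -0.26 and Pvalb -0.052, and in early cells Stk39 0.069, S100g -1.62, Klk1 -0.057 and Kcnj16 -0.045. After thinning they were Stk39 0.20, Hsd11b2 0.31, Glud1 -0.044, Wnk4 -0.31 and Kcnj16 -0.11, and in cells free of other segments' genes Umod -0.063, Scnn1b 0.0052, Slc8a1 0.30 and Trpm6 0.22. Without high-UMI cells they were Scnn1b 0.18 and Hsd11b2 0.10, and with the 25% limit Wnk4 -0.12. Leaving out a library gave ranges that crossed 0, -0.31 to 0.65 for Umod, -0.67 to 0.28 for Scnn1b, -0.086 to 0.16 for Glud1, -0.077 to 0.13 for Wnk4, -0.014 to 0.28 for Kcnj16 and -0.29 to 0.054 for Trpm6. The cause was not tested. Depth limits the late cells, where 3183 genes were tested.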
